A study of Mus musculus with 26 samples.

Results

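Prdm1, Prdm14 and Tfap2c are the genes that specify the germ line in the mouse embryo, and their transcripts were followed here in single cells of the fetal ovary. The 3 genes were taken by name from the table of counts, where they are 3 of 16344 genes with a complete line, and all 3 passed the filter on low counts. The table holds 1881 cells in 26 libraries, which are numbered 1 to 26 in accession order, from 8 stages between E11.5 and E18.5 (E for embryonic day). Gonads of female fetuses were pooled from several embryos per stage, digested with trypsin and sorted by fluorescence. All fetuses carried the BVSC transgenes Blimp1-mVenus and Stella-ECFP, reporters for Prdm1 (whose product is BLIMP1) and Dppa3 (whose product is STELLA), so there is no group without them. The gates were BVSC (1302 cells), BV (50 cells, at E11.5 and E14.5) and Negative (529 cells). Stage, library and gate of each cell come from the deposited cell table. No source ties a library to its own animals. The p-values therefore reflect how libraries vary, and that variation may be technical.

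PRDM1 is a zinc finger repressor that is induced by BMP signals in a small group of epiblast cells and silences the somatic program there. PRDM14, a relative of PRDM1, sustains pluripotency genes in the new primordial germ cells and holds down enzymes of DNA methylation. TFAP2C (AP-2 gamma) is a transcription factor of the AP-2 family that acts downstream of PRDM1 in the same cells. All 3 are best known from earlier days of development than those sampled. The stages here run from primordial germ cells that still divide in the gonad, through entry into meiosis, to oocytes late in meiotic prophase.

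In the GENCODE annotation of GRCm38, Prdm1 (ENSMUSG00000038151.13) lies at chr10:44437177-44528501 on the minus strand. Prdm14 (ENSMUSG00000042414.7) lies at chr1:13113457-13127163 on the minus strand, and Tfap2c (ENSMUSG00000028640.11) at chr2:172549593-172558622 on the plus strand. No exon of another annotated gene overlaps theirs. Of the 3 genes, 1 matched the RefSeq promoter table (GRCm38.p6), and Prdm14 and Tfap2c did not. The bases directly before the Prdm1 start in that table (chr10:44458749-44458998, minus strand, 5′ to 3′) lie inside the GENCODE span, whose start is farther upstream. They are shown because the members' own proteins are factors that bind DNA, and their known letters were searched there. The capitals mark the CG pairs.
Prdm1 promoter: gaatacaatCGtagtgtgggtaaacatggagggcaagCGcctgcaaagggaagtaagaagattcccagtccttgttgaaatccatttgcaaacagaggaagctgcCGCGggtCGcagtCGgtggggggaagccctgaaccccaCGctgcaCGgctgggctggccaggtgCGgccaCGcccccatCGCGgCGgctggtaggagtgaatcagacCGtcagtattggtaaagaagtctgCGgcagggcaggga
The stretch is 59.2% G and C and holds 15 CG pairs, against a median of 6 over 32851 promoters cut to the same length. On neither strand does it hold the AP-2 letters GCCNNNGGC, which 13.7% of those promoters hold. The PRDM1 letters AGNGAAAG (in 7.30% of promoters), the PRDM14 letters GGTCTCTAA (0.240%) and the GC box GGGCGG (32.7%) had no match either, so no overlap between motifs arose. The motifs were chosen after values of these genes were known.

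Cells of 1 library, stage and gate were summed into a pool where there were at least 5 of them. This gave 18 BVSC pools of 26 to 96 cells, with 4743602 to 27498626 unique molecular identifiers (UMIs, each a tagged transcript) per pool, 17 Negative pools and 3 BV pools. Levels are given as counts per 1000000 UMIs of the cells' deposited totals (CPM). Summed markers of germ cells (7 genes, no member among them) stood at 1152 to 3585 CPM in BVSC pools and at 14.7 to 599 CPM in Negative pools. Summed markers of the somatic gonad (10 genes) stood at 14.6 to 240.1 CPM in BVSC pools and at 1450 to 2518 CPM in Negative pools. Germ markers exceeded somatic markers in 1277 of 1302 BVSC cells, 48 of 50 BV cells and 19 of 529 Negative cells. This count leaves macrophage markers out. The pool of the 5 BV cells of E11.5 had 89.5 CPM of germ, 186 CPM of somatic and 7050 CPM of macrophage markers. The libraries of E15.5 and of E17.5 stood apart from each other in Dppa3, with 21.7 CPM in library 16 against 462 CPM in library 18, and 193 CPM in library 24 against 13 CPM in library 25.

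The first comparison asked when sorted germ cells lose these transcripts. BVSC cells were sorted on the Blimp1 reporter at every stage, so the course of Prdm1 is that of cells kept by its own reporter. Whether transcripts of Blimp1-mVenus are counted as Prdm1 is not known. The part of the sort in the course of Prdm1 was not tested. Each of the 3 genes was at a high level in every BVSC pool from E11.5 to E13.5. Every later BVSC pool lay below all 6 of those pools. The share of all genes whose pools part in this way is not given here. Prdm14 and Tfap2c were near 0 at E16.5, while the mean of Prdm1 stayed at a few percent of its early level to E18.5. At E16.5 that mean rested on library 20 with 5.05 CPM of Prdm1. Library 22 had 0.225 CPM of Prdm1, below its 0.375 CPM of Tfap2c. The early mean was 91.4 ± 18.1 CPM for Prdm1, 48.9 ± 7.68 CPM for Prdm14 and 189 ± 31.2 CPM for Tfap2c (SD, n = 6 pools). At E14.5 the means over 4 pools were 29.2%, 41.7% and 40.1% of the early means of Prdm1, Prdm14 and Tfap2c. At E15.5 they were 8.55%, 8.27% and 7.48%, and at E16.5 they were 2.89%, 0.0766% and 0.205%. Of the 4 pools of E14.5, libraries 4, 5 and 12 are labelled replicate R1 in the deposited cell table, and library 14 is labelled R2. In a pool, fewer cells with the transcript and less transcript per cell cannot be told apart, so shares of single cells are given further on.

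**Figure D1:**
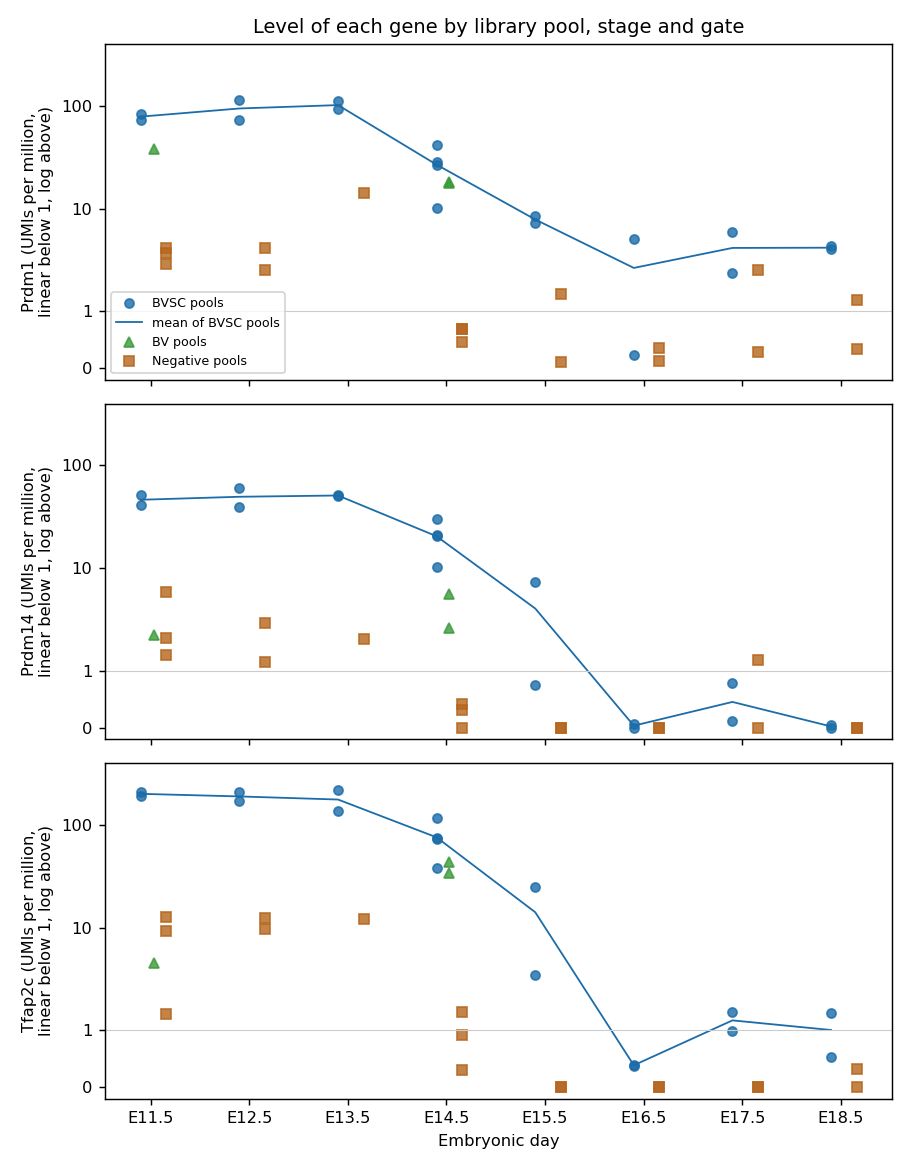
Level of each gene in CPM (axis linear below 1 and log above) against embryonic day, with 1 point per pool of a library, gate and stage and a line through the means of the BVSC pools. For Prdm1, Prdm14 and Tfap2c all BVSC pools of E14.5 and later lie below the 6 BVSC pools of E11.5 to E13.5, and Prdm1 remains at 2.36 to 5.90 CPM in the 4 pools of E17.5 and E18.5.

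Prdm1, the repressor of the somatic program, stood at 83.8 and 73.1 CPM in BVSC pools of libraries 1 and 7 at E11.5. It stood at 73.5 and 114.9 CPM in libraries 8 and 9 at E12.5, and at 110.7 and 92.5 CPM in libraries 3 and 10 at E13.5. The ranges of E12.5 and of its neighbouring stages overlapped. At E14.5 libraries 4, 5, 12 and 14 had 10.1, 28.3, 42.0 and 26.5 CPM, with library 4 the lowest. At E15.5 libraries 16 and 18 had 8.42 and 7.21 CPM, and at E16.5 libraries 20 and 22 had 5.05 and 0.225 CPM. All of these were under the early pools, and the pair of E16.5 was far apart. At E17.5 libraries 24 and 25 had 2.36 and 5.90 CPM, and at E18.5 libraries 6 and 26 had 4.30 and 4.01 CPM, within the range of the E16.5 pair except for library 25.

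Prdm14, the factor that sustains pluripotency genes, stood at 41.0 and 51.5 CPM in libraries 1 and 7 at E11.5, at 59.9 and 39.0 CPM in libraries 8 and 9 at E12.5, and at 51.2 and 50.7 CPM in libraries 3 and 10 at E13.5. At E14.5 libraries 4, 5, 12 and 14 had 10.2, 29.8, 20.5 and 21.1 CPM. The E14.5 pools again lay below the early ones, with library 4 lowest. At E15.5 library 16 had 0.742 CPM and library 18 had 7.34 CPM. From E16.5 the gene was at the limit of detection: 1 UMI in the BVSC cells of E16.5 (library 22), 15 UMIs at E17.5 and 1 UMI at E18.5 (library 6). The levels at E17.5 were 0.124 CPM in library 24 and 0.783 CPM in library 25.

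Tfap2c, the AP-2 factor, stood at 193 and 209 CPM in libraries 1 and 7, at 208 and 171 CPM in libraries 8 and 9, and at 135 and 218 CPM in libraries 3 and 10. At E14.5 libraries 4, 5, 12 and 14 had 38.5, 117, 74.5 and 72.6 CPM. Library 4 was thus the lowest at E14.5 for each of the 3 genes. At E15.5 library 16 had 3.45 CPM and library 18 had 24.8 CPM. At E16.5 libraries 20 and 22 had 0.400 and 0.375 CPM, and the 4 pools of E17.5 and E18.5 ranged from 0.538 to 1.51 CPM.

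Stages were compared in 1 model of the 18 BVSC pools with edgeR's quasi-likelihood test over 10246 genes, and a call is a Benjamini-Hochberg adjusted p under 0.05. From E14.5 to E16.5 all 3 genes fell, in a comparison in which 7.51% of genes tested were called lower and 8.81% higher. Prdm1 fell by 3.36 ± 0.72 in log2 units (SE, adjusted p = 0.00352) and Tfap2c fell by 7.64 ± 0.84 (adjusted p = 1.3e-05). For Prdm14 (adjusted p = 6.89e-05) the 1 UMI at E16.5 gives no stable fitted fold, so summed counts scaled by depth were compared instead. They were 713 times higher at E14.5 than at E16.5, with an exact 95% interval from 128 to 28193. That interval covers counting error only.

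From E11.5 to E18.5 all 3 genes fell as well, where 12.8% of genes were called lower and 15% higher. Prdm1 fell by 4.49 ± 0.81 in log2 units (adjusted p = 0.000316) and Tfap2c fell by 8.22 ± 0.88 (adjusted p = 1.29e-06), both by edgeR. Prdm14 went from 1800 UMIs in the BVSC cells of E11.5 to 1 UMI at E18.5 (adjusted p = 8.76e-06). These 2 comparisons were called for all 3 genes under every one of 27 alternative settings each.

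The start of the loss was less firmly placed. At E14.5 against E11.5, 5.58% of genes were called lower and 8.35% higher. Prdm1 fell by 1.75 ± 0.57 (log2, adjusted p = 0.0443) and Tfap2c fell by 1.58 ± 0.49 (adjusted p = 0.0354). Prdm14 differed by -1.37 ± 0.61 and was not called (adjusted p = 0.146). The calls of Prdm1 and Tfap2c were lost in 6 of 27 alternatives each, with adjusted p up to 0.155 and 0.166. Leaving out library 1, 4, 7 or 14 alone ended either call, as did leaving out library 5 for Prdm1 and library 12 for Tfap2c. Prdm14 was called in 5 of 27, among them without library 16 (adjusted p = 0.0433).

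Neighbouring stages were then compared. Against E13.5, 0.137% of genes were called lower at E14.5, and none of the 3 was among them. The differences were -1.98 ± 0.57 for Prdm1 (adjusted p = 0.0929), -1.36 ± 0.61 for Prdm14 (0.335) and -1.30 ± 0.49 for Tfap2c (0.237). Alternatives called Prdm1 here in 12 of 27, among them DESeq2 (adjusted p = 0.0262) and the fit of only the stages compared (0.00274). They called Tfap2c in 5 and Prdm14 in 1. At E15.5 against E14.5, where 2.7% of genes were called lower, Prdm14 fell by 2.46 ± 0.73 (adjusted p = 0.0488) and Tfap2c fell by 2.54 ± 0.59 (adjusted p = 0.0150). Prdm1 differed by -1.83 ± 0.65 (adjusted p = 0.0926) and was called in 4 of 27 alternatives. The Prdm14 call was lost in 10 of 27 alternatives, among them libraries merged by deposited replicate (adjusted p = 0.128), marker screening, upper-quartile scaling and leaving out library 5, 12, 14 or 16. That of Tfap2c was lost in 4, among them merged libraries (adjusted p = 0.0536). Without library 16 neither held: Prdm14 was at -1.60 (adjusted p = 0.419) and Tfap2c at -1.74 (adjusted p = 0.196). At E16.5 against E15.5, where 0.039% of genes were called lower, Tfap2c fell by 5.10 ± 0.81 (adjusted p = 0.0120), and this call was lost without library 20 or without library 22 (adjusted p = 0.0784 and 0.199). Prdm1 differed by -1.52 ± 0.73 (adjusted p = 0.528), and Prdm14 went from 136 UMIs to 1 UMI (adjusted p = 0.0554), a change called in 14 of 27 alternatives, DESeq2 among them (adjusted p = 0.00203). Without library 20, Prdm1 at E16.5 was lower than at E15.5 by 5.05 on the log2 scale (adjusted p = 0.0355).

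Before and after this window no member was called. At E12.5 against E11.5 and at E13.5 against E12.5, 0.0683% and 0.0976% of genes were called in either direction. At E17.5 against E16.5, at E18.5 against E17.5 and at E18.5 against E16.5 the shares were 0.0%, 0.00976% and 1.23%. Of the 3 genes, only Prdm14 had an unadjusted p under 0.05 in these 5 comparisons, at E17.5 against E16.5 (0.0209) and at E18.5 against E17.5 (0.0362), on 15 UMIs. Over all genes, edgeR had 407 unadjusted p-values under 0.05 at E17.5 against E16.5, where DESeq2 called 6 genes higher and 14 lower. Dppa3, the gene behind the other reporter, had another course: it fell by 4.39 ± 0.99 from E14.5 to E16.5 (adjusted p = 0.00494) and rose by 4.17 ± 1.02 from E16.5 to E18.5 (adjusted p = 0.0476).

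The share of single cells with at least 1 UMI was counted next, without summing. At E11.5, 98.5% of 133 BVSC cells held a Prdm1 UMI, 90.2% a Prdm14 UMI and 100% a Tfap2c UMI. At E14.5, 70.3% of 283 cells held Prdm1 (exact 95% interval 64.6 to 75.6), 53.0% held Prdm14 (47.0 to 58.9) and 83.7% held Tfap2c (78.9 to 87.9). These intervals cover counting error over the pooled cells and not the spread of libraries, whose shares ran from 41.9 to 80.2% for Prdm1, 22.6 to 62.4% for Prdm14 and 64.5 to 91.4% for Tfap2c, lowest in library 4. At E15.5, with 161 cells, the shares were 38.5%, 11.8% and 25.5%. Libraries 16 and 18 differed there, with 33.0% and 46.3% for Prdm1, 1.06% and 26.9% for Prdm14, and 7.45% and 50.7% for Tfap2c. At E16.5, with 188 cells, they were 10.1%, 0.532% and 4.26%, and Prdm1 was in 16.7% of library 20 cells and 3.26% of library 22 cells. Prdm1 was then found in 27.5% of 142 cells at E17.5 and in 28.9% of 97 cells at E18.5. Tfap2c was found in 9.15% and 6.19% of them, and Prdm14 in 6.34% and 1.03%.

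Depth differed between stages, with a median of 315893 UMIs per BVSC cell at E11.5 and 162965 at E16.5, so cells were also thinned to 100000 UMIs, leaving out 7 to 50 shallower cells per stage. The expected share with Prdm1 was then 95.9% at E11.5, 61.8% at E14.5, 22.5% at E15.5, 7.55% at E16.5, 14.9% at E17.5 and 17.4% at E18.5. That of Tfap2c was 99.8%, 79.4%, 20.2%, 2.87%, 6.08% and 4.36%. In Negative cells, which should lack these genes, 34.8% of 46 cells at E11.5 held a Prdm1 UMI at a median depth of 98990.5 UMIs, 30.4% held Prdm14 and 58.7% held Tfap2c. Prdm1 was in 4.35% of 46 Negative cells at E17.5 and in 11.4% of 44 at E18.5. At E16.5, 3.26% of 92 Negative cells held Prdm1 at a median depth of 178384 UMIs and none held Prdm14 or Tfap2c. A count of 0 of 92 cells allows a share with a UMI of up to 3.26%, taken as 3 cells of the total, or 3.93% by the exact 95% interval. The late BVSC shares of Prdm14 are therefore within what Negative cells show, with 6.52% of 46 Negative cells at E17.5.

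**Figure D2:**
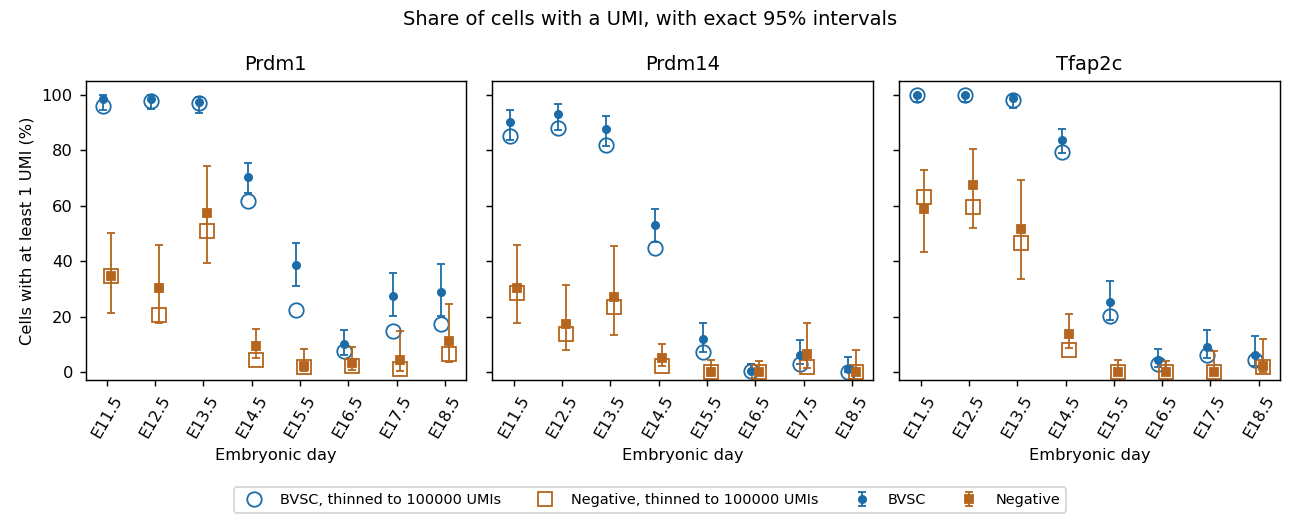
Share of cells with at least 1 UMI of each gene (percent) against embryonic day, for BVSC and Negative cells, with exact 95% binomial intervals; open symbols are the shares after thinning to 100000 UMIs. Prdm1 falls from 98.5% of BVSC cells at E11.5 to 10.1% at E16.5 and is at 28.9% at E18.5, where Prdm14 is at 1.03% and Tfap2c at 6.19%.

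The 3 transcripts were found together in most early cells and in no late cell. All 3 were detected in 120 of 133 BVSC cells at E11.5, 132 of 143 at E12.5 and 135 of 155 at E13.5. At E14.5 the number was 122 of 283 (43.1%), at E15.5 it was 6 of 161 (3.73%), and from E16.5 on it was 0 of 188, 0 of 142 and 0 of 97. A count of 0 allows, as 3 cells of the total, up to 1.60%, 2.11% and 3.09% of cells with all 3 UMIs at these stages. Prdm14 was in only 1, 9 and 1 cells there, so its scarcity alone keeps the joint count near 0. Cells with Prdm1 and neither of the others numbered 0 from E11.5 to E13.5, 10 at E14.5 and 39 at E15.5. They numbered 17, 35 and 25 at E16.5, E17.5 and E18.5. Cells without any of the 3 went from 1 of 155 at E13.5 to 26 at E14.5, 72 at E15.5 and 163 of 188 at E16.5.

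**Figure D3:**
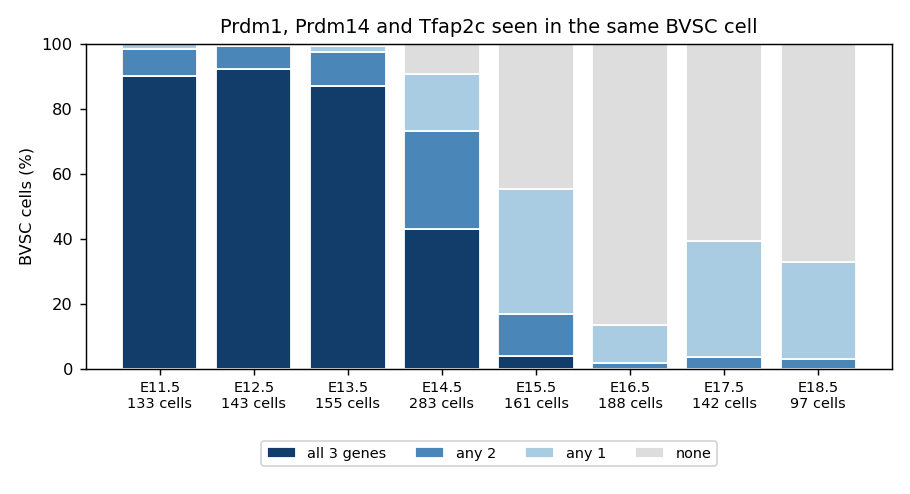
Share of BVSC cells at each embryonic day by how many of the 3 genes had at least 1 UMI. Cells with all 3 are 90.2% at E11.5, 43.1% at E14.5, 3.73% at E15.5 and 0 from E16.5 on.

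The ratio of Prdm1 to Tfap2c within a pool was compared next; it was chosen after the values were seen. On the log2 scale of counts with 0.5 added, it was -1.05 ± 0.51 over the 6 early pools and 1.74 ± 1.48 over the 6 pools of E16.5 to E18.5 (SD). The difference of 2.79 had an exact two-sided permutation p of 0.00649, and 0.0260 after Benjamini-Hochberg adjustment over 4 comparisons. The choice of ratio came from these same pools, so the p-values are no independent test of the difference. The sort used the reporter of Prdm1 and none of Tfap2c, and its part in the ratio was not tested. Of the 6 late pools, 5 were above all early pools and library 22 at -0.65 was within their range. At E14.5 the ratio was -1.56 ± 0.55 over 4 pools and did not differ detectably (difference -0.51, exact permutation p = 0.171, adjusted 0.229). At E15.5 library 16 had 1.28 and library 18 had -1.78. The ratio of Prdm14 to Tfap2c differed from the early pools by 0.07 at E14.5 (exact permutation p = 0.695) and by -0.79 at the late stages (p = 0.160, adjusted 0.229, exact permutation). The E14.5 pools of that ratio lay between -1.97 and -1.78, inside the early range of -2.23 to -1.40.

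**Figure D4:**
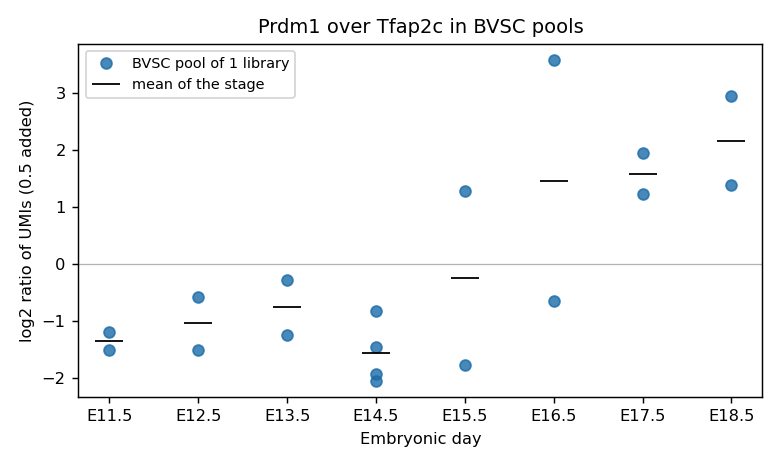
Log2 ratio of Prdm1 to Tfap2c counts in each BVSC pool (0.5 added to each count) against embryonic day, with a bar at the mean of each stage. Of the 6 pools from E16.5 on, 5 lie above all early pools, whose highest value is -0.29.

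Late Prdm1 was carried by a small number of cells, and this held for the scarcer Tfap2c as well. Of 72 late Tfap2c UMIs, 46 (63.9%) lay in 6 BVSC cells with at least 5 each. Of 17 late Prdm14 UMIs, 6 lay in 1 cell. From E16.5 to E18.5, 341 of 427 BVSC cells (79.9%) had no Prdm1 UMI, 54 had 1 and 17 had 2 to 4. The other 15 cells had at least 5, up to 44, and held 254 of 347 UMIs (73.2%). The limit of 5 was set after the values were seen: 18 cells had at least 3, and the 10 cells with at least 10 held 62.0% of the UMIs. Library 20 gave 4 of the 15 cells, library 24 gave 2, library 25 gave 4, library 6 gave 4, library 26 gave 1 and library 22 gave 0. Their Prdm1 level was between 11.7 and 156 CPM with a median of 46.1 CPM. These cells were chosen by their Prdm1 UMIs, so this level is a description and is not compared with that of unselected cells.

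Of these 15 cells none had a Tfap2c UMI, 1 had Prdm14 and 11 had Dppa3. Over all 427 late BVSC cells 27 had Tfap2c and 11 had Prdm14. Dppa3 was in 52.1% of the BVSC cells of E16.5, 70.4% of E17.5 and 99.0% of E18.5. No test of a difference was made. Germ markers exceeded somatic markers in all 15, and their median germ marker sum was 2337 CPM against 2776 CPM in the other late cells. Their median depth was 333995 UMIs, above the 196040 of all late BVSC cells, and their median macrophage marker sum was 9.49 CPM against 0 in the others. The part of depth, of these markers and of the sort on the Prdm1 reporter in the result was not tested. At E15.5 another 15 cells had at least 5 Prdm1 UMIs, and 5 of them had Tfap2c and 1 had Prdm14.

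**Figure D5:**
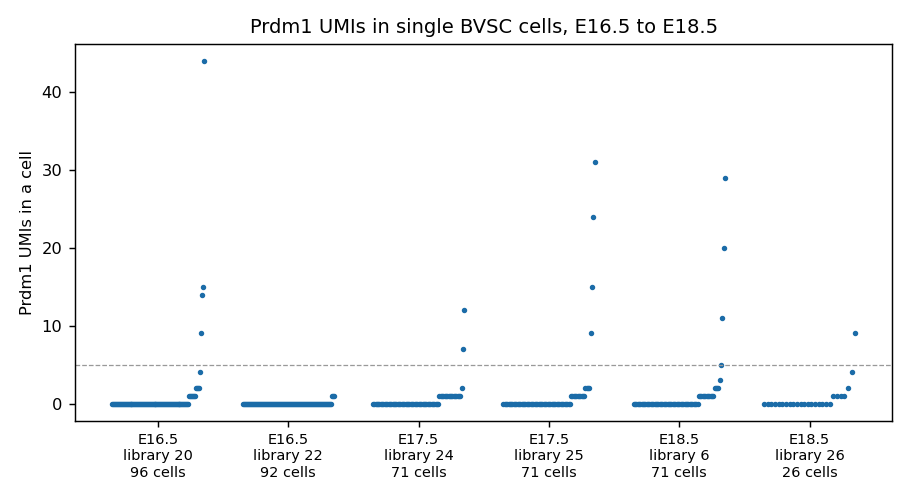
Prdm1 UMIs in each BVSC cell of E16.5 to E18.5 by library. Of the 427 cells, 341 are at 0 and 15 have at least 5 UMIs, with the highest cell at 44 in library 20.

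The second comparison set BVSC cells against Negative cells of the same stage. For Prdm1 the sort itself used its reporter, so a difference is partly set by the gate. Negative pools had 2.54 to 4.15 CPM of Prdm1 at E11.5 and E12.5, and in the same libraries this was 4.40 to 5.67% of the BVSC level at E11.5 and 3.46 to 3.57% at E12.5. For Tfap2c these shares were 4.47 to 6.57% and 4.71 to 7.20%, and for Prdm14 they were 4.03 to 14.1% and 3.15 to 4.85%. The Negative pool of E13.5 had 14.2 CPM of Prdm1, of whose 76 UMIs 39 lay in 1 cell with germ markers above somatic markers, and 7.34 CPM without that cell. At E14.5 the Negative pools were at 0.457 to 0.696 CPM of Prdm1. Late Negative pools were closer to the BVSC pools of their libraries, with 12.3 to 42.8% of the BVSC level of Prdm1 at E17.5. At E18.5 this share was 7.88 to 32.1%. The Negative pools held 7 Prdm1 UMIs at E17.5 and 5 at E18.5.

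In 1 edgeR model of 11291 genes, 27.8% were called higher in BVSC than in Negative pools on average over the stages. Prdm1 was higher by 3.57 ± 0.39 on the log2 scale (adjusted p = 7.18e-10), a direction partly set by the sort on its reporter. Prdm14 was higher by 4.04 ± 0.81 (adjusted p = 7.93e-05) and Tfap2c by 5.55 ± 0.47 (adjusted p = 6.31e-12), both with few UMIs from E16.5. By stage, at E11.5 (11.4% of genes called higher) Prdm1 was higher by 4.64 ± 0.86, Prdm14 by 4.08 ± 1.04 and Tfap2c by 4.78 ± 0.70, with adjusted p of 0.000138, 0.0042 and 6.04e-06. The Prdm14 call was lost without library 7 (adjusted p = 0.0738). At E12.5 (9.01%) the differences were 4.95 ± 1.02, 4.68 ± 1.25 and 4.22 ± 0.80, all called. Leaving out library 9 ended the calls of Prdm1 (adjusted p = 0.0540) and Prdm14 (0.168), and leaving out library 8 that of Prdm14 (0.140). At E13.5 (1.24%) there was 1 Negative pool, which the model assumes to vary like the other groups. Tfap2c was higher there by 4.0 ± 1.05 (adjusted p = 0.0158; 3.42 and 0.110 without library 10), while Prdm1 at 2.93 ± 1.19 and Prdm14 at 4.73 ± 1.67 were not called (adjusted p = 0.149 and 0.0849). With cells screened by the markers, Prdm1 was called at E13.5 at 4.01 (adjusted p = 0.0374), and DESeq2 called Prdm1 (0.0397) and Prdm14 (0.00619). At E14.5 (14.9%) the differences were 5.51 ± 0.85, 6.49 ± 1.11 and 6.50 ± 0.73, all called.

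The gate difference of Prdm1 was 3.27 ± 0.96 at E15.5 (adjusted p = 0.0162, 6.99% of genes called higher), a call that was lost without library 16 (adjusted p = 0.0584) or library 19 (adjusted p = 0.204). It was 3.34 ± 1.09 at E16.5 (adjusted p = 0.03, 8.24% of genes called higher). Without library 20 the E16.5 difference was -0.09, so that library decides it, and the call was also lost without library 21 or 23 (adjusted p = 0.170 and 0.108). At E17.5 (6.69%) and E18.5 (7.64%) Prdm1 was not called, with 1.56 ± 1.02 (adjusted p = 0.323) and 2.36 ± 1.07 (adjusted p = 0.132). The change of the gate difference from early to late stages was -1.76 ± 0.86 and was not called (adjusted p = 0.206), in a contrast with 8.4% of genes called lower. Without library 20 it was -2.90 (adjusted p = 0.0143). At E15.5 the Negative cells had 0 UMIs of Prdm14 and Tfap2c, beside 136 and 485 UMIs in BVSC cells (adjusted p = 0.00187 and 6.19e-06). Later Negative cells held 3 Prdm14 UMIs and 1 Tfap2c UMI in all.

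The BV gate takes cells with the Blimp1 reporter and not the Stella reporter. At E14.5 BV pools of libraries 4 and 5 had 18.1 and 17.7 CPM of Prdm1, inside the BVSC range of 10.1 to 42.0 CPM. They had 2.63 and 5.59 CPM of Prdm14, below all 4 BVSC pools, and 34.2 and 43.5 CPM of Tfap2c, which overlap them. Of the 45 cells, 40.0% held Prdm1, 28.9% Prdm14 and 80.0% Tfap2c. In an edgeR model of 7855 genes, BV minus BVSC was -0.52 ± 0.48 for Prdm1, -2.22 ± 0.62 for Prdm14 and -0.92 ± 0.37 for Tfap2c (adjusted p = 0.791, 0.350 and 0.530). No gene was called (0.0%), 630 had an unadjusted p under 0.05, and Prdm1 turned to 0.03 with the library as a block. Dppa3, the gene of the missing reporter, was at 581 and 443 CPM in these BV pools, a difference of -0.21 ± 0.22 (adjusted p = 0.816). BV and BVSC cells of library 4 carry different letters in their cell names, whose meaning is not given, so gate and letter cannot be told apart there. In library 5 the letter C occurs in both gates: with it, Prdm14 was at 10.6 CPM in 15 BV cells and 9.86 CPM in 32 BVSC cells, and Tfap2c at 56.3 and 67.0 CPM.

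The genes whose levels ran most like each member over the 18 BVSC pools were ranked by Pearson's r of log2(CPM + 1). These pools share libraries and stages, and r is a description. For Tfap2c the nearest gene was Prdm14 (r = 0.994), and the reverse held too. Fam60a came next to both (0.988 with each). Zfp978 (0.988 with Prdm14 and 0.980 with Tfap2c) and Mcm7, a subunit of the replicative helicase (0.987 and 0.985), were also among the 5 nearest to both. Porcn (0.982), which modifies WNT proteins, was near Prdm14, and Cenpa (0.981), the centromeric histone, was near Tfap2c. For Prdm1 the nearest were Tfe3 (0.961), Sephs1 (0.958), Ap3b2 (0.951), Aurka (0.944), a mitotic kinase, and Ptcd3 (0.943), with Prdm14 at rank 18 and Tfap2c at rank 21. By Spearman's rank measure 0 of 5 genes were shared for each member.

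Relatives and partners of the 3 genes were counted in the same model. Of 15 PR domain genes 10 were tested, Prdm1 and Prdm14 among them. At E18.5 against E11.5, 1 was called higher and 3 lower, where 15% of all genes were called higher and 12.8% lower. The median log2 change was 0.44 beside 0.15 over all genes. Prdm16, a PR domain factor known from brown fat, rose from 0.593 to 1.28 CPM at E11.5, through 29.8 to 49.3 CPM at E16.5, to 107 to 178 CPM at E18.5 (7.01 ± 0.93, adjusted p = 1.28e-05). From E14.5 to E16.5, 2 PR domain genes were called lower and 1 higher, with a median of 0.51. Over all genes 7.51% were called lower there and 8.81% higher. Of 5 AP-2 genes 2 were tested, and only Tfap2c was called.

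Of 17 pluripotency genes known from primordial germ cells, 9 were tested and the others were not analysed here. At E14.5 against E11.5, 3 fell and 0 rose (median -1.34 beside 0.07 over all genes), beside 5.58% of all genes called lower. This number ranged from 0 to 7 over 27 alternatives: it was 0 with libraries merged by deposited replicate or without library 7, 1 without library 1, 4, 12 or 14 and by DESeq2, and 7 in 5 alternatives, among them no filter on low counts and leaving out library 16 or 18. At E16.5 against E14.5, 6 fell and 1 rose (median -5.31 beside 0.09), the latter being 0 to 2 over the alternatives. There 7.51% of all genes were called lower and 8.81% higher. At E18.5 against E11.5, 7 fell and 0 rose (median -6.80), where 12.8% of all genes were called lower and 15% higher. Nanog, a core pluripotency factor, went from 160 to 245 CPM at E11.5, to 23.2 to 70.4 CPM at E14.5 and 0.400 to 1.5 CPM at E16.5. Sox2, its partner factor, went from 144 to 311 CPM at E11.5 to 1.35 to 2.20 CPM at E16.5. Utf1 went from 530 to 665 CPM to 5.90 to 9.07 CPM over the same stages. Pools of E11.5, E14.5 and E16.5 did not overlap for any of these 3 genes, and the share of all genes without overlap is not given here.

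Of 22 genes of specification and its partners (BMP signalling, RNA-binding and surface genes), 10 were tested. From E14.5 to E16.5, 5 fell and 0 rose (median -0.81), where 7.51% of all genes were called lower and 8.81% higher. The 5 became 1 without library 22 and 3 with libraries merged by deposited replicate. From E11.5 to E18.5, 4 fell and 1 rose (median -0.51), where 12.8% were called lower and 15% higher. Ifitm3, a surface marker of primordial germ cells, fell by 6.42 ± 0.64 from E11.5 to E18.5 (log2, adjusted p = 8.19e-07). Lin28a, which blocks let-7 maturation, fell by 5.63 ± 1.21 (adjusted p = 0.00148). Id1, a target of BMP signals, rose by 2.68 ± 0.36 (adjusted p = 1.6e-05), from 57.9 to 154 CPM to 678 to 866 CPM.

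Of 9 genes of DNA methylation and its removal, 6 were tested. From E11.5 to E18.5, 3 rose and 2 fell (median 1.66), where 15% of all genes were called higher and 12.8% lower. The 3 that rose became 1 without library 1 or without library 7. Tet1, which oxidises methylated cytosine, went from 273 to 378 CPM at E11.5 to 4.87 to 12.4 CPM at E16.5 and 1.12 to 3.16 CPM at E18.5 (adjusted p = 9.79e-07). Its relative Tet3 rose by 5.31 ± 0.86 (adjusted p = 0.000101). Tdg, which removes oxidised bases, fell by 3.22 ± 0.62 (adjusted p = 0.000629). Dnmt3l, a cofactor of new methylation, had 0 UMIs at E11.5 and 1.96 to 7.38 CPM at E18.5 (adjusted p = 0.0337). Of 7 genes of later germ cell determination 4 were tested. From E11.5 to E14.5, where 8.35% of all genes were called higher and 5.58% lower, 3 rose and 0 fell (median 3.49). Among them Sycp3, a protein of the meiotic chromosome axis, rose by 3.8 ± 0.44 (adjusted p = 1.09e-05).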

How the data were processed

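Single cells were read by a modified STRT-seq, a 3′ method with UMIs, per the labels' protocols. The authors deposited raw UMI counts per gene and cell and a cell table with each cell's total count. The submitters' processing notes name mm10 as the build and list STAR, featureCounts, Subread, UMI-tools and CASAVA 1.8, with no settings. Complete lines of 16344 genes were read and 1 incomplete line was left out. In the median cell these genes cover 51.2% of the deposited total, and that total scales the CPM. Other genes were not analysed here. Cell totals ran from 10016 to 948642 UMIs (median 214706), and no cell column was duplicated.

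Counts were summed per library, stage and gate and tested with edgeR 4.0.16 (R 4.3.3; TMM, filterByExpr, quasi-likelihood); the standard error is the log2 fold change divided by the root of F. DESeq2 1.42.0 was an alternative. The scripts were tested on simulated data. Permutation tests and exact intervals used scipy 1.17.1. No doublet caller was run, since cells were picked singly. The text names the 3 genes, Dppa3, up to 4 called genes per list and contrast, and the 5 most alike genes. The members and lists were chosen with earlier results of these data known.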

Additional observations from a re-analysis of the deposited data

Results flagged for a closer look

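At E11.5 the BV gate held 5 cells, all in library 2, and these cells entered no comparison. Their pool had 38.1 CPM of Prdm1, above the highest Negative pool of that stage at 4.15 CPM, which is why it stands out. The 17 UMIs lay in 2 of the 5 cells, with 15 of them in 1 cell, while no Negative cell of E11.5 had more than 2. Tfap2c had 2 UMIs and Prdm14 had 1. The summed macrophage markers ran from 104 to 8907 CPM per cell and the germ markers from 0 to 118 CPM; the median macrophage sum of the 46 Negative cells was 0. The part of the macrophage markers in the Prdm1 level was not tested.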

How the results depend on the processing

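The falls of the 3 genes from E14.5 to E16.5 and from E11.5 to E18.5 kept their direction and call in 27 of 27 alternatives each. The mean gate difference of Prdm1, partly set by the sort, kept both in 33 of 33. The ratio of Prdm1 to Tfap2c, chosen after the values were seen, did so in 14 of 14. At E14.5 against E11.5, merging libraries by deposited replicate ended the calls of Prdm1 (-1.62) and Tfap2c (-1.60); leaving out 1 library gave -2.02 to -1.48 and -1.95 to -1.37. Prdm14 there was called with no filter on low counts (-1.34), with only the stages compared (-1.33) and without libraries 16 and 25 (-1.40, an alternative chosen after seeing the data), and leaving out 1 library gave -1.68 to -1.13. The late minus early gate difference of Prdm1 ranged from -2.90 to -1.30 with 1 library left out. With the library as a replicate block, which pairs gates of 1 library, BV against BVSC for Prdm1 reversed to 0.027, and Prdm14 at E14.5 in BVSC against Negative was no longer called (4.57, adjusted p = 0.0601). The Prdm1 gate difference at E16.5 ranged from -0.093, without library 20, to 4.25 with 1 library left out. The share of late Prdm1 UMIs in rich cells was 62.0% with a limit of 10. The causes were not tested. For the gate comparison by stage, only libraries of that stage were left out. Counts of 0 to 13 UMIs of Prdm14 and 5 to 25 UMIs of Tfap2c per BVSC pool limit both from E16.5.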
